A study of Homo sapiens with 6 samples.

Results

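Syndecans and glypicans are the main families of heparan sulfate proteoglycans at the cell surface. The genes described here are SDC1, SDC2, SDC3, SDC4, GPC1, GPC2, GPC3, GPC4 and GPC6. They are 9 of the 56303 genes in the count table, and 8 of the 9 had enough counts to be tested. The members were chosen by family membership with measured values of this same contrast already known, namely the differences of SDC4, SDC1 and GPC4 between the libraries labelled siFBXL6 and siNC. Their differences are therefore given as a description. Where the call of a member in the fit to all genes is mentioned, it only places the gene beside the background and supports nothing about the family. GPC5, the other glypican gene, lay outside the members and is given beside them.

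The libraries came from T24, an established human bladder cancer line, labelled wild type in genotype. Cells were transfected for 48 h with siRNA against FBXL6 (siFBXL6, n = 3) or with control siRNA (siNC, n = 3), and RNA-seq asked which transcripts differed after FBXL6 silencing. FBXL6 encodes an F-box protein, the substrate-binding part of an SCF ubiquitin ligase. The libraries held 56814946 to 60968158 counts, all 6 carried the same batch label, and nothing in the labels says that replicates were separate cultures, so errors and adjusted p-values measure the spread between these libraries. The labels number the siFBXL6 libraries 1 to 3 without saying whether the numbers mark replicates of 1 siRNA or separate siRNAs. The study's methods use siFBXL6-1 and siFBXL6-2 as names of separate siRNAs, and no reagent named siFBXL6-3 was found in them. The libraries are treated here as replicates, and if they are separate siRNAs, n, SD and SE of that group describe the spread between siRNAs.

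The targeted gene was read first. FBXL6 had 362, 414 and 398 counts in the 3 siNC libraries and 398, 344 and 350 in the 3 siFBXL6 libraries. As TMM-scaled CPM (counts scaled to a common library size) these were 6.61 ± 0.380 (SD, n = 3) and 6.03 ± 0.483 (SD, n = 3). The groups overlapped and the log2 fold change was -0.13 (SE 0.0876, 95% interval -0.31 to 0.05). The mean was slightly lower in siFBXL6, but the interval holds 0, so that a decrease was not resolved in these counts, and the groups are called by their labels throughout. ACTB, an actin gene often used as a control, was at 1168 CPM in both groups, and the sign of its log2 fold change of 0.00 turned negative with upper-quartile scaling (-0.02) and with library size alone (-0.02).

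As background, a syndecan spans the membrane and has a short cytoplasmic tail, whereas a glypican is tied to the outer membrane leaflet by a glycosylphosphatidylinositol anchor. Both carry heparan sulfate chains, which bind growth factors, morphogens, chemokines and matrix proteins. Syndecan-1 is abundant on epithelial cells, including those that line the bladder, and syndecan-4 sits in focal adhesions of many adherent cells.

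Cell identity was checked with marker genes. Of 8 urothelial markers, UPK1A, UPK1B, UPK3A and KRT20 were below 0.1 CPM. The summed level of these 8 genes was 524, 509 and 523 CPM in siNC and 384, 387 and 389 CPM in siFBXL6, with the basal keratin KRT5 the most abundant. The 5 simple epithelial genes summed to 3298, 3180 and 3278 CPM in siNC and 2955, 2940 and 2947 CPM in siFBXL6, with KRT7 the most abundant. Fibroblast markers (6 genes, COL1A1 the most abundant) summed to 40.1, 42.0 and 40.2 CPM against 37.4, 37.3 and 35.8 CPM, and endothelial markers (4 genes) to 2.84, 2.53 and 2.91 CPM against 3.87, 3.25 and 4.07 CPM. Over all 6 libraries KDR was the most abundant endothelial marker, but the 1 that passed the test was PECAM1, at 0.573 CPM in siNC and 1.39 CPM in siFBXL6 (log2 fold change 1.28, SE 0.239). Leukocyte markers (5 genes) summed to 7.32, 7.66 and 7.47 CPM in siNC and 20.2, 18.3 and 19.4 CPM in siFBXL6. Most of that sum was CD68, a lysosomal protein also made outside leukocytes, while CD3E, a T cell marker, was below 0.1 CPM. The other tested leukocyte markers, PTPRC and LYZ, had log2 fold changes of -0.62 (SE 0.345) and -0.55 (SE 0.454) and did not pass, against 1.49 (SE 0.0658) for CD68, which did. The part of these marker differences in the results below was not tested, and in bulk RNA fewer cells of a kind and less RNA per cell cannot be told apart.

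Levels between genes were compared as RPKM, the TMM-scaled CPM per kilobase of summed exon length. In siNC the order ran from SDC1 at 27.9 ± 1.78 RPKM (SD, n = 3) through SDC4 at 18.1 ± 0.260, GPC4 at 11.5 ± 0.291 and GPC1 at 10.9 ± 0.420 to SDC3 at 5.04 ± 0.234 RPKM. The ranges of GPC4 and GPC1 overlapped, so these neighbours did not differ beyond their spread. GPC2 followed at 1.22 ± 0.125 RPKM, and GPC3, SDC2, GPC6 and GPC5 lay at or below 0.121 RPKM. In siFBXL6 SDC4 came first at 53.6 ± 0.165 RPKM, followed by SDC1 at 39.8 ± 1.18, GPC1 at 9.37 ± 0.414, GPC4 at 5.89 ± 0.180 and SDC3 at 4.46 ± 0.0864 RPKM. The leading place thus passed from SDC1 to SDC4, and GPC1 and GPC4 no longer overlapped. The siNC order depends on the length used: with the Ensembl canonical transcript, a setting chosen after seeing the data, GPC1 was at 19.1 ± 0.735 RPKM and stood above SDC4 at 18.1 ± 0.260 RPKM, while GPC4 was at 11.5 ± 0.291 RPKM.

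**Figure D1:**
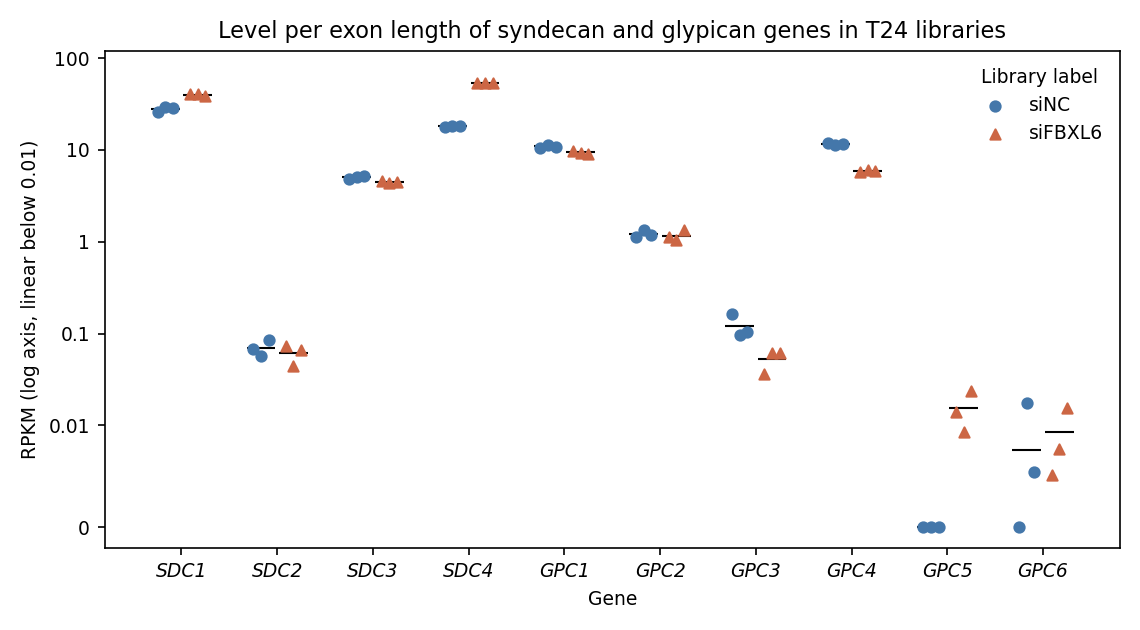
Level of each syndecan and glypican gene in RPKM on a log axis that is linear below 0.01, with 1 point for each of the 3 siNC and 3 siFBXL6 libraries and a black line at each group mean. SDC4 was at 18.1 RPKM in siNC and 53.6 RPKM in siFBXL6 in mean, where it lies above SDC1, GPC4 was at 11.5 and 5.89 RPKM, and GPC5 was at 0 in all 3 siNC libraries.

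The sequences just upstream of the start sites are shown for the members with the largest well-counted differences, SDC4 and SDC1 on the higher side and GPC4 on the lower side. RefSeq promoter windows were found for 8 of the 10 family genes, and SDC2 and GPC3 had no entry. Each window holds the 250 bases before the start, 5′ to 3′ on the gene's strand, with GRCh38.p14 coordinates, and capitals mark GC boxes (GGGCGG) and kappaB sites (GGGNNTTCC) on either strand. SDC4 lies at chr20:45348425-45348674, SDC1 at chr2:20225476-20225725 and GPC4 at chrX:133415490-133415739, all on the minus strand.
SDC4: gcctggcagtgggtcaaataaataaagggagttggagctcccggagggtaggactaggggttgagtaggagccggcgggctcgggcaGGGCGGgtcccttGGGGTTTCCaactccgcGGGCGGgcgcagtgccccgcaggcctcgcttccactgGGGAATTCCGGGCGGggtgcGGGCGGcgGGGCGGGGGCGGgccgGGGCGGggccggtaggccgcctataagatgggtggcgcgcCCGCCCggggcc
SDC1: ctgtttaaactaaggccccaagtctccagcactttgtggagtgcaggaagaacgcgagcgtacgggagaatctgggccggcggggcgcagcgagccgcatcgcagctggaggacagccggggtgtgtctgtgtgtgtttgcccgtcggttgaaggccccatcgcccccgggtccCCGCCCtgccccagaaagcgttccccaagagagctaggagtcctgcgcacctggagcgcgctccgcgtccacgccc
GPC4: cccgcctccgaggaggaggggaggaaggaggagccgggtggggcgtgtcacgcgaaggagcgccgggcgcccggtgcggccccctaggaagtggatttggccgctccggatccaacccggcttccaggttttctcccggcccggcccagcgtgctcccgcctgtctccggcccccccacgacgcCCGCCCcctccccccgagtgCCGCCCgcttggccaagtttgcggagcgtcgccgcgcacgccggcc
The SDC4 window held 8 GC boxes and 2 kappaB sites, 1 of which lies directly before a GC box. The SDC1 window held 1 GC box and the GPC4 window 2, and neither held a kappaB site. The windows of SDC3, GPC1, GPC2 and GPC5, not printed, held 5, 4, 3 and 2 GC boxes, that of GPC5 also held 1 kappaB site, and that of GPC6 held neither motif. Any relation between the numbers of motifs and the differences was not tested. A second SDC1 entry, which lies inside the gene's span and is not printed, held 1 of each. Of 27305 promoter windows of this length, 42.3% held a GC box and 5.81% a kappaB site. The 9-letter kappaB form was taken after these sequences had been read; a form with 1 more T, searched first, was in 1.73% of windows and in none of the family's. AP-1 sites (TGANTCA, 6.6% of windows) and E-boxes (CACGTG, 6.49%) were in no family window, and TATA boxes (TATAAA, 11.1%) only in those of GPC5 and GPC6. The GC content was 73.6% for SDC4, 66.4% for SDC1 and 76.0% for GPC4, against a median of 58.0% over all windows. These matches describe letters and do not show that a factor binds.

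SDC4 is the syndecan of focal adhesions, where its tail binds protein kinase C alpha. The gene spans chr20:45325288-45348424 (GRCh38, minus strand), next to the first of the printed windows. SDC4 had 2725, 2950 and 2744 counts in siNC and 8455, 8435 and 8466 in siFBXL6. The corresponding levels were 46.6, 47.8 and 47.8 CPM and 139.8, 139.7 and 140.5 CPM. Every siFBXL6 library was thus above every siNC library, with a small spread within each group (SD 0.680 and 0.431 CPM, n = 3). The log2 fold change was 1.56 (SE 0.0317, 95% interval 1.498 to 1.63), a 2.95-fold higher level (2.83 to 3.09).

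SDC1, the main syndecan of epithelial sheets, spans chr2:20200797-20225433 (minus strand). It had 5437, 6459 and 5942 counts in siNC and 8769, 8802 and 8319 in siFBXL6. These were 93.0, 105 and 103 CPM against 145, 146 and 138 CPM. The groups did not overlap, and siNC replicate 1 was the lowest of the 6 libraries. The level was 1.42-fold higher (1.35 to 1.499), a log2 fold change of 0.51 (SE 0.0364). SDC1 was therefore higher from a larger siNC level in RPKM but by a smaller factor than SDC4.

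SDC3, a syndecan best known from nerve and muscle, spans chr1:30869467-30908761 (minus strand). Its counts were 1980, 2215 and 2132 in siNC and 1941, 1865 and 1902 in siFBXL6. In CPM it was at 33.9, 35.9 and 37.1 against 32.1, 30.9 and 31.6, without overlap and lower in siFBXL6. The log2 fold change was small, -0.18 (SE 0.0434, 95% interval -0.26 to -0.09). SDC2, the syndecan of mesenchymal cells, had only 12 to 22 counts in each library, and the groups overlapped. Its log2 fold change of -0.19 had a 95% interval from -0.97 to 0.58, so that a difference of either sign was not detectable at this depth.

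GPC4, a glypican known to bind fibroblast growth factors and Wnt proteins, was the well-counted member with the largest lower value. The gene spans chrX:133300103-133415490 (minus strand). It had 3432, 3450 and 3262 counts in siNC and 1706, 1808 and 1777 in siFBXL6. In CPM these were 58.7, 55.8 and 56.81 against 28.2, 29.9 and 29.5. All 3 siFBXL6 libraries were below all 3 siNC libraries. The level was 1.96-fold lower (1.85 to 2.07), a log2 fold change of -0.97 (SE 0.0395, 95% interval -1.05 to -0.89).

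GPC1, a glypican often raised in tumor cells, spans chr2:240435671-240468078 (plus strand). Its counts were 4035, 4573 and 4000 in siNC and 3871, 3653 and 3539 in siFBXL6. These were 69.0, 74.0 and 69.7 CPM against 64.0, 60.5 and 58.7 CPM. The groups did not overlap, and the log2 fold change was -0.22 (SE 0.0368, 95% interval -0.29 to -0.14).

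GPC2, best known from the developing nervous system, spans chr7:100169606-100177372 (minus strand). It had 244 to 321 counts in each library and was at 4.65 ± 0.478 CPM in siNC and 4.46 ± 0.545 CPM in siFBXL6 (SD, n = 3). The groups overlapped, with a log2 fold change of -0.06 (SE 0.108) whose sign turned without siNC replicate 2 (0.03) or without siFBXL6 replicate 2 (0.00). GPC3, a fetal glypican, had 26, 16 and 16 counts in siNC and 6, 10 and 10 in siFBXL6. It passed the low-count filter through the siNC libraries, where it was higher. The siFBXL6 libraries were at 0.0992, 0.166 and 0.166 CPM, below or close to the cutoff of 0.1644 CPM. Its log2 fold change of -1.19 had a wide 95% interval of -2.08 to -0.29, and it lost its call under DESeq2 (-1.19) and without siNC replicate 1 (-0.90), siFBXL6 replicate 1 (-0.98), replicate 2 (-1.30) or replicate 3 (-1.30).

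GPC6 and GPC5 were near the floor. GPC6 had 0, 7 and 2 counts in siNC and 2, 3 and 6 in siFBXL6, and GPC5 had 0 in all siNC libraries and 3, 2 and 5 in siFBXL6. If each count is an independent event, a count of 0 allows up to 3 counts, or 0.0486 to 0.0522 CPM, in libraries of this size. The low counts of SDC2 and GPC3 were all even, and the limit is higher if both reads of a pair were counted, which is not settled here. Neither gene was tested and no fold change is given. GPC6 also shares 476 exon bases, 7.36% of its length, with the antisense gene RP11-632L2.2, and reads of the pair cannot be told apart without the strand setting of the counting.

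**Figure D2:**
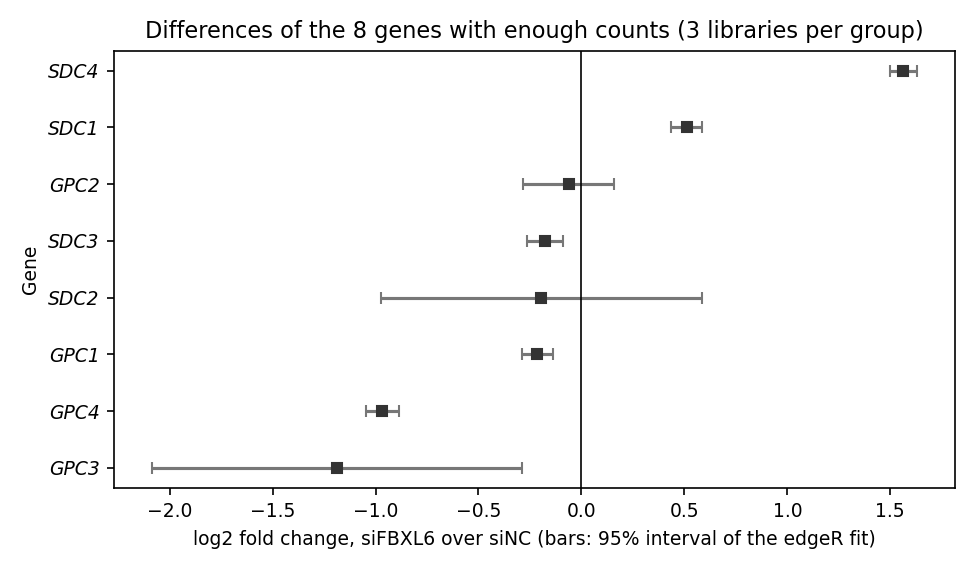
The log2 fold change (siFBXL6 over siNC, horizontal axis) of the 8 members with enough counts, with bars for the 95% interval of the edgeR fit to 3 libraries per group. SDC4 (1.56) and SDC1 (0.51) lie right of 0, GPC4 (-0.97), GPC1 (-0.22) and SDC3 (-0.18) lie left of it with short bars, and the bars of SDC2 and GPC3 are the widest.

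Counted together, 6 of the 8 tested members were past an adjusted p of 0.05, against 40.2% of all 21298 genes tested. SDC4 and SDC1 were higher (background 20.5%), and SDC3, GPC1, GPC3 and GPC4 were lower (background 19.8%). Only SDC4 was called and at least 2-fold higher, as were 1.78% of all genes. On the lower side GPC3 was called and 2.28-fold lower (1.22 to 4.24), but it lost its call in the settings given above. The share of all genes for that direction is not given. For 6 of the 8 no library of one group lay within the range of the other, against 48.2% of all genes. Since this contrast was known when the members were chosen and GPC3 passed the filter through the group where it was higher, nothing is read from these counts. The median log2 fold change was -0.185 over the 8 members and -0.00706 over all genes tested.

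Added up by family, the syndecan sum was higher in siFBXL6 and the glypican sum lower, mostly through SDC4 and GPC4. Single members differ from their sum, since SDC3 was lower, SDC2 and GPC2 overlapped between the groups, and GPC5 had counts in siFBXL6 alone. Syndecan RPKM summed to 48.5, 52.5 and 52.4 in siNC and 98.5, 98.4 and 96.7 in siFBXL6, a ratio of means of 1.91. Glypican RPKM summed to 23.7, 24.1 and 23.4 in siNC and 16.7, 16.5 and 16.4 in siFBXL6, a ratio of 0.695. Neither sum overlapped between the groups. The syndecan sum was 2.15 ± 0.0971 times the glypican sum in siNC and 5.93 ± 0.0459 times in siFBXL6 (SD, n = 3). With canonical transcript lengths, the setting chosen after seeing the data, these ratios were 1.74 ± 0.0741 and 4.34 ± 0.0572. The ratio of SDC4 to GPC4 RPKM was 1.58 ± 0.0608 in siNC and 9.10 ± 0.281 in siFBXL6.

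The make-up within each family shifted as well. SDC4 made up 35.5 ± 1.08% of syndecan RPKM in siNC and 54.8 ± 0.733% in siFBXL6, whereas SDC1 went from 54.5 ± 1.12% to 40.6 ± 0.800% although its own level was higher. The share of SDC3 went from 9.85 ± 0.180% to 4.56 ± 0.101%. Among glypicans GPC4 held 48.5 ± 1.62% in siNC and 35.7 ± 1.39% in siFBXL6, and GPC1 held 45.8 ± 1.25% and 56.77 ± 1.96%. Here the share of GPC1 was larger although its level was lower, since GPC4 was lower still. Which glypican led in siNC depends on the length: with canonical transcript lengths GPC1 held 58.5 ± 1.11% in siNC and 68.0 ± 1.82% in siFBXL6, and GPC4 held 35.4 ± 1.47% and 24.4 ± 1.14%. SDC4 then held 32.0 ± 1.02% and 51.1 ± 0.726% of syndecan RPKM.

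**Figure D3:**
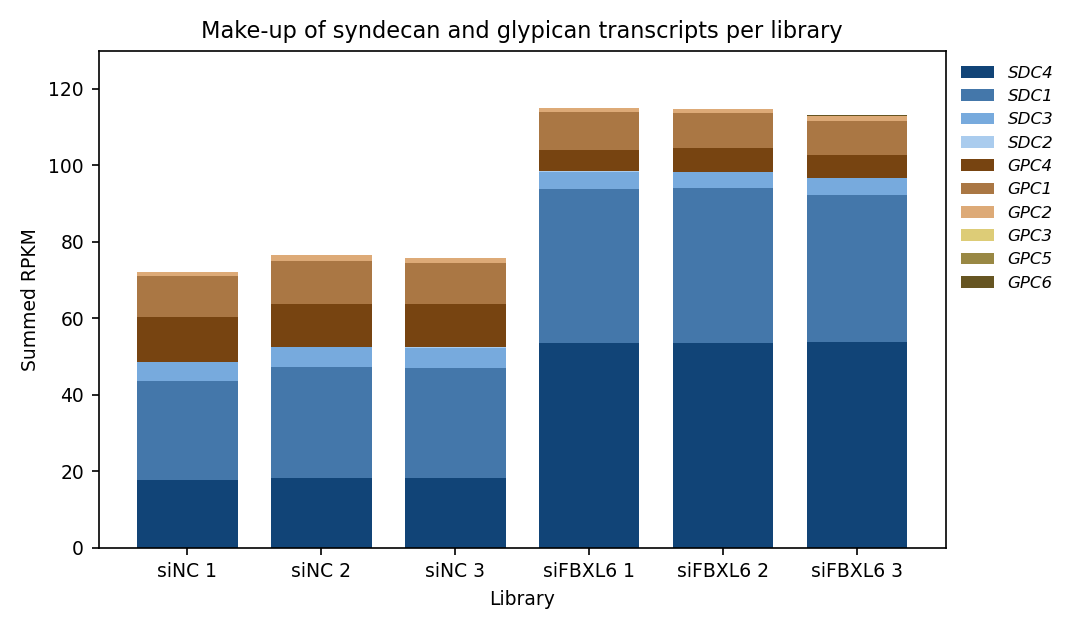
RPKM of the 10 syndecan and glypican genes stacked from 0 for each of the 6 libraries, with syndecans in blue and glypicans in brown. The total was 74.9 RPKM in mean in siNC and 114 RPKM in siFBXL6, and most of the added height is SDC4.

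Position on the chromosome was read next. GPC4 and GPC3 are neighbours on the X chromosome, 120.3 kb apart. No pattern by position is read from the pair, because the lower GPC3 value rests on few counts and lost its call in the settings given above. The nearest tested gene on the other side of GPC4 was HS6ST2, at 338.7 kb, with a log2 fold change of -0.04 (SE 0.124). On the far side of GPC3, CCDC160 at 251.2 kb was lower, with a log2 fold change of -0.55 (SE 0.152), and passed the threshold. Beside SDC4, SYS1 at 13.5 kb rose with a log2 fold change of 0.32 (SE 0.0686), and RBPJL at 7.5 kb was near the floor at 0.236 CPM in siNC. SDC1 lies between LAPTM4A, which fell (-0.24, SE 0.0372), and PUM2, which rose (0.20, SE 0.0299). These neighbours were taken by position alone.

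Likeness over the 6 libraries was described by the Pearson correlation of log2 CPM among 16192 genes of at least 1 CPM. For SDC4 the closest were DOCK9 (r = 0.99985), SCEL (0.99985) and IL1B (0.99982), out of 532 genes above 0.99. For SDC1 they were KCNS3 (0.99953), CTSC (0.99826) and SAA2-SAA4 (0.99802), out of 87 above 0.99. The libraries fall into 2 groups, so these values mostly carry the shared difference between groups and have no p.

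The other genes of the pathway were read from lists of known function, with adjusted p-values from the edgeR quasi-likelihood fit to the whole table. Over the 10 lists 36.4% to 81.2% of the tested genes passed, beside 40.2% of all genes, and these shares were not tested against each other. Among other cell surface and matrix proteoglycans, 8 of 12 tested genes passed, 4 higher and 4 lower (median log2 fold change 0.07). CD44, the hyaluronan receptor whose variants can carry heparan sulfate, rose from 352 ± 5.70 to 595 ± 13.0 CPM (log2 fold change 0.76, SE 0.0287). SPOCK1, a secreted testican, rose by a log2 fold change of 0.53 (SE 0.0331). COL18A1, a basement membrane collagen with heparan sulfate, fell by 0.42 (SE 0.0422), and SPOCK3 fell by 0.74 (SE 0.0904). HSPG2 (perlecan) had a log2 fold change of -0.12 and lost its call without siNC replicate 2 (-0.08) or siFBXL6 replicate 3 (-0.11). AGRN (agrin) had 0.08 (SE 0.0324), which missed the threshold (adjusted p = 0.0541) but passed it without siNC replicate 2 (0.09) and with DESeq2 size factors (0.08).

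For the linker that joins chain to core protein, 4 of 7 genes passed, 2 in each direction. XYLT2, a xylosyltransferase that starts the linker, rose from 53.1 ± 0.551 to 72.0 ± 1.22 CPM (log2 fold change 0.44), and FAM20B, the xylose kinase, rose by 0.19 (SE 0.0387). B4GALT7, the galactosyltransferase of the next step, fell by 0.47 (SE 0.0993), and PXYLP1, the phosphatase that removes the xylose phosphate, fell by 0.22 (SE 0.0588).

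For heparan sulfate polymerisation, 3 of 5 genes passed and all 3 were higher (median log2 fold change 0.32). EXT2 rose from 88.7 ± 1.40 to 123 ± 2.02 CPM (log2 fold change 0.48, adjusted p = 1.13e-14, higher in 3 of 3 libraries than in any siNC library). EXTL2 (0.38, SE 0.0721) and EXTL3 (0.32, SE 0.0439), which act on chain initiation, rose too. EXTL1, the other gene that did not pass beside EXT1, had 5 to 27 counts in each library, overlapping groups and a log2 fold change of -0.74 (SE 0.505). EXT1, the polymerase partner of EXT2, was at 112 CPM in siNC and 111 CPM in siFBXL6, with a log2 fold change of -0.01 whose sign turned without siFBXL6 replicate 3 (0.01).

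Of 16 genes that modify the chain, 8 were tested and 5 passed, 1 higher and 4 lower (median log2 fold change -0.10). HS6ST1, a 6-O-sulfotransferase, fell by 0.18 (SE 0.0447). HS2ST1, the 2-O-sulfotransferase, fell by 0.14 and lost its call without siFBXL6 replicate 1 (-0.09). GLCE, the glucuronic acid epimerase, fell by 0.13 and lost its call without siNC replicate 1 (-0.13), siNC replicate 2 (-0.11), siFBXL6 replicate 1 (-0.11) or siFBXL6 replicate 3 (-0.13), and also without the low-count filter (-0.13) and with DESeq2 (-0.13). HS3ST1, a 3-O-sulfotransferase, rose by 0.39 and lost its call without siFBXL6 replicate 2 (0.30). The other passing gene was HS6ST3 (-0.42, SE 0.168), named after its value was seen. It lost its call without siNC replicate 1 (-0.44), replicate 2 (-0.43) or replicate 3 (-0.38), without siFBXL6 replicate 1 (-0.35) or replicate 3 (-0.37), without the low-count filter (-0.42) and with DESeq2 (-0.41). The count of 5 was 3 without siNC replicate 1 or 2 or siFBXL6 replicate 3, and 2 without siFBXL6 replicate 1. It was also 3 without the low-count filter and with DESeq2. NDST1, an N-deacetylase and N-sulfotransferase, had a log2 fold change of -0.05 (SE 0.0411).

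Among genes that edit or degrade heparan sulfate, 8 of 11 passed, 6 higher and 2 lower (median log2 fold change 0.24). The lower genes were both extracellular 6-O-endosulfatases. SULF2 was at 298, 302 and 294 CPM in siNC and 208, 201 and 211 CPM in siFBXL6, and fell by 0.53 (SE 0.0298, adjusted p = 3.06e-16, lower in 3 of 3 libraries). SULF1, at 2.87 CPM in siNC, fell by 0.87 (SE 0.155). The higher genes act mostly in lysosomes, among them ARSG (0.54, SE 0.0553) and HGSNAT (0.43, SE 0.0710). HPSE, the heparanase that cuts the chains, rose by 0.33 (SE 0.0746).

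For chondroitin and dermatan sulfate, the other chains that syndecans can carry, 8 of 15 genes passed, 6 higher and 2 lower (median log2 fold change 0.10). CHST15 rose by 0.68 (SE 0.0560), CSGALNACT2 by 0.40 (SE 0.0401), DSE by 0.32 (SE 0.0317) and CHST11 by 0.25 (SE 0.0327). For the supply of sulfate and sugar nucleotides, 4 of 11 passed, 3 higher and 1 lower, a share of 36.4% beside 40.2% of all genes. UXS1, which makes UDP-xylose, rose from 109 to 141 CPM (log2 fold change 0.37), and UGDH, which makes its precursor, fell by 0.29 (SE 0.0561). SLC35D1 (0.23) lost its call without siNC replicate 2 (0.20) or siFBXL6 replicate 2 (0.17), and also with library size alone (0.21), without the low-count filter (0.23) and with DESeq2 (0.23). IMPAD1 (0.12) lost its call without siFBXL6 replicate 1 (0.10).

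Core protein shedding and processing had 8 of 12 genes past the threshold, 6 higher and 2 lower (median log2 fold change 0.11). The count was 5 without siNC replicate 2 or siFBXL6 replicate 1 and 4 without siNC replicate 3. It was also 5 with upper-quartile scaling, with library size alone, without the low-count filter and with DESeq2. MMP14, a membrane protease that cleaves SDC1, rose from 453 ± 4.45 to 701 ± 7.0 CPM (log2 fold change 0.63). TIMP3, an inhibitor of shedding proteases, rose by 0.71 (SE 0.0304). MMP2, a gelatinase that MMP14 activates, fell from 140.4 ± 3.58 to 86.1 ± 1.81 CPM (log2 fold change -0.71). ADAM10 fell by 0.28 (SE 0.0298), and ADAM17, a main syndecan sheddase, had 0.12 with overlapping groups and lost its call without siNC replicate 2 (0.10) or siNC replicate 3 (0.09).

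Of the cytoplasmic partners of syndecans, 8 of 12 passed, 4 higher and 4 lower (median log2 fold change 0.07). SDCBP (syntenin), which binds the syndecan tail, rose by 0.15 (SE 0.0310), and its partner PDCD6IP rose by 0.36 (SE 0.0317). EZR (ezrin) fell by 0.25 (SE 0.0286), CASK by 0.17 (SE 0.0308) and TIAM1 by 0.21 (SE 0.0412).

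Among heparin-binding ligands, 13 of 16 passed, 8 higher and 5 lower (median log2 fold change 0.29). HBEGF, an EGF receptor ligand that binds heparan sulfate, was at 99.2, 95.9 and 97.5 CPM in siNC and 218, 213 and 220.1 CPM in siFBXL6. All siFBXL6 libraries were above all siNC libraries, with a log2 fold change of 1.15 (SE 0.0309, adjusted p = 2.95e-25). The chemokine CXCL8 rose by 0.89 (SE 0.0312) and AREG by 0.49 (SE 0.0291). ANGPTL4 rose by 1.97 (SE 0.162) from a low level of 0.796 CPM in siNC. These 4 had the smallest adjusted p of the list. Of the 5 lower genes, PTN had a log2 fold change of -1.03 (SE 0.137), MDK -0.24 (SE 0.0348) and FN1 -0.16 (SE 0.0266). FN1 was at 2429 CPM in siNC and 2180 CPM in siFBXL6. PTN, MDK and FN1 were named after their values were seen.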

How the data were processed

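RNA-seq counts of T24 cells were deposited by the authors as 1 table of whole counts per gene with summed exon lengths. The submitters' notes name fastp 0.23.0, STAR, featureCounts of Subread 1.5.1 and GRCh38, whereas the study's methods name Trimmomatic and HISAT2, and which made the table is unresolved. The annotation release and strand setting are not given in the sources used here. Counts were fitted in R 4.3.3 with edgeR 4.0.16 (filterByExpr with minimum count 10, TMM, glmQLFit, glmQLFTest, prior count 0) and adjusted by Benjamini-Hochberg over 21298 genes, with limma 3.58.1 loaded. RPKM is CPM per kilobase of the deposited length. DESeq2 1.42.0, other scalings, other filters, a replicate block and leaving out each library were the alternatives. The code was tested on simulated data.

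The members and lists were chosen with earlier results of these data known. Named genes were all members, GPC5, FBXL6, ACTB, the 4 genes of each list with the smallest adjusted p, 14 core genes given whatever their values, and the 3 genes most like SDC4 and SDC1; some genes that this rule or the marker lists name are not reported here. Replicates within a group differed by 2.76 to 5.80 in chi-square per degree of freedom, so none was counted as a duplicate. That measure takes each count as an independent event. FBXL6, SDC2 and GPC3 had only even counts in all 6 libraries, so counts may not be independent, and counting noise may be larger than assumed. Whether both reads of a pair were counted was not tested. Exact permutation of 3 against 3 libraries cannot give a p below 0.1. Floors and intervals of counts cover counting error only, with each count taken as independent.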

Additional observations from a re-analysis of the deposited data

How the results depend on the processing

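Over 13 alternatives, 58 named genes gave 752 log2 fold changes, of which 718 kept their direction and side of the threshold, 23 lost the call, 2 gained it and 9 changed sign. The 58 do not hold every gene printed here. HS6ST3 is outside them, and its lost calls, given separately, are not among the 23. GPC5 and GPC6, which were not tested, and the genes most like SDC4 and SDC1 are outside them too. So are PTN, MDK and FN1, and genes printed only as markers or as neighbours. For members, 96 of 103 values kept both, 5 (all GPC3) lost the call and 2 (GPC2) changed sign. The members called were 5 or 6, and the all-gene count of 8569 ranged from 7451 to 8707. The log2 fold change ranged from 1.54 to 1.57 for SDC4, 0.46 to 0.54 for SDC1 and -0.99 to -0.94 for GPC4.

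The count for heparan sulfate modification was 3 without the filter and with DESeq2, and 2 to 4 with 1 library left out. That for shedding and processing was 5 with upper-quartile scaling, library size alone, no filter and DESeq2, and 4 to 8 with 1 library left out. With 1 library left out GPC2 ranged from -0.165 to 0.0253, EXT1 from -0.0273 to 0.0141 and ACTB from -0.0176 to 0.0175. ACTB was -0.0192 with upper-quartile scaling, -0.0218 with library size alone and -0.000833 without the filter. The cause was not tested. With canonical transcript lengths, chosen after seeing the data, GPC1 led the glypicans in siNC. Requiring 10 counts in every library removed GPC3 from the test.

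No pairing by replicate number was seen: the same-numbered deviations correlated at -0.0353, 0.0136 and -0.0107. Such values cannot show whether the libraries were paired by design. A fit with the replicate block called 8408 genes and 6 members; HS6ST3 (-0.42) lost its call in it. Depth limits SDC2, GPC3, GPC5 and GPC6, whose counts stayed at 26 or below.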
